A study of Homo sapiens with 27 samples.

Results

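Time course 2 and time course 1, the runs of directed cardiac differentiation of HuES6 cells without the WNT inhibitor IWP-2, were compared day by day, and the genes that differed between them on every day, only late or only early were described. All arrays without IWP-2 were used, day 0 included, which gave 16 of the 27 arrays of the series, 8 from each run, taken on days 0, 1, 2, 3, 4, 5, 6 and 8. HuES6 is an established human embryonic stem cell line. In both runs the cells were kept undifferentiated in FTDA medium, were plated on Matrigel in 24-well plates, and had insulin in the medium at the start only (day 0). For the first 24 hours they received 10 ng/ml of FGF2, 1 ng/ml of BMP4 and 1 µM of CHIR00921. The arms with IWP-2, which are set beside the results where they bear on them, differ in timing, since the inhibitor was given on days 1 and 2 of time course 2 but on days 2 and 3 of time course 1, and both were sampled on days 3, 4, 5, 6 and 8 (10 arrays). Each run was done 1 time with 1 line and has 1 array per day, so a p-value below measures how steadily the runs differed over the days and not the spread between repeated runs. Whether separate cultures were used for the days of a run is not given in the labels.

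Directed cardiac differentiation takes pluripotent cells through a primitive streak stage into mesoderm, from which cardiac, smooth muscle and fibroblast-like cells can form. FGF, BMP and WNT signals set the course, and their strength, the density of the cells and the state of the starting culture are known to shift the mixture that results. Actins are the filament proteins of the cytoskeleton. Their genes and many others of the contractile apparatus are controlled by serum response factor (SRF), which binds a short DNA motif called the CArG box. Its cofactors of the MRTF family sense how much free actin monomer a cell holds.

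Promoters of 3 actin genes are shown here because the largest mean difference that passed between the runs lay in an actin gene, and because another of them, with the same motif, did not pass the test. ACTA1 encodes skeletal muscle alpha-actin, ACTG2 smooth muscle gamma-actin and ACTG1 cytoplasmic gamma-actin. The sequences are the 130 bases before the annotated start in RefSeq (GRCh38.p14), written 5′ to 3′ on the strand of the gene, with CArG boxes in capitals. They lie at chr1:229434095-229434224 on the minus strand for ACTA1, at chr2:73892878-73893007 on the plus strand for ACTG2 and at chr17:81512800-81512929 on the minus strand for ACTG1.
ACTA1: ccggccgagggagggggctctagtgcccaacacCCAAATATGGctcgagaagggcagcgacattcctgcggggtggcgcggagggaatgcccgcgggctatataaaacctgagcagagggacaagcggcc
ACTG2: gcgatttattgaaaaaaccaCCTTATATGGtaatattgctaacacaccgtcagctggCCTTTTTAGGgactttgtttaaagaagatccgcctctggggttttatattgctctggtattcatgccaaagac
ACTG1: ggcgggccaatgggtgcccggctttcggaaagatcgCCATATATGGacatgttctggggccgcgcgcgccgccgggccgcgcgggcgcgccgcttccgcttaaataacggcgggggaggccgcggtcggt
The boxes begin 97 bases before the start in ACTA1, 110 and 73 bases before it in ACTG2 and 94 bases before it in ACTG1. The motif reads the same on both strands, and in the 250 bases upstream 407 of 34943 promoters of the table hold it (1.16%).

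The arrays carried 47323 probes, and 13084 genes had a probe that was detected on at least 2 of the 16 arrays. Time course 2 had 17052, 18366 and 19784 detected probes per array (lowest, median and highest), against 16424, 17688 and 18493 in time course 1. More probes were detected in time course 2 on 7 of 8 days, by 730.4 ± 840 probes (SD, n = 8 days; two-sided exact sign-flip permutation test, p = 0.0547). The mean scanner intensity was lower in time course 2 on all 8 days, at 302.1, 313.2 and 330.2 units, against 318.2, 330.8 and 336.3 units in time course 1 (difference −14.21 ± 9.89, SD, n = 8; exact permutation p = 0.00781, the smallest that 8 days allow). Quantile normalization removes such a shift from the values below, and its part in the results was not tested. The number of arrays limits the precision.

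The cells followed the labelled course in both runs. POU5F1, the core pluripotency factor, had a log2 intensity of 11.42 on day 0 of time course 2 and 11.43 on day 0 of time course 1, and 4.81 and 4.61 on day 8. NANOG, another pluripotency factor, and SOX2, its partner, were bright on day 0 and not above background from day 4 on in either run. HAND1, a factor of lateral and extraembryonic mesoderm, reached 13.92 on day 8 of time course 2 and 13.83 on day 8 of time course 1.

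Same-day arrays of the runs were most alike on day 2 and least alike on day 8. Those of time course 2 and time course 1 correlated across genes with Pearson r of 0.975, 0.981, 0.985, 0.98, 0.981, 0.972, 0.973 and 0.969 on days 0, 1, 2, 3, 4, 5, 6 and 8. Genes are not independent replicates, so these values describe the arrays. Up to day 4 each array of time course 2 was closest to the same day of time course 1. Day 5 of time course 2 was closest to day 6 of time course 1 (r = 0.976), and day 6 was closest to day 8 (r = 0.975).

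**Figure D1:**
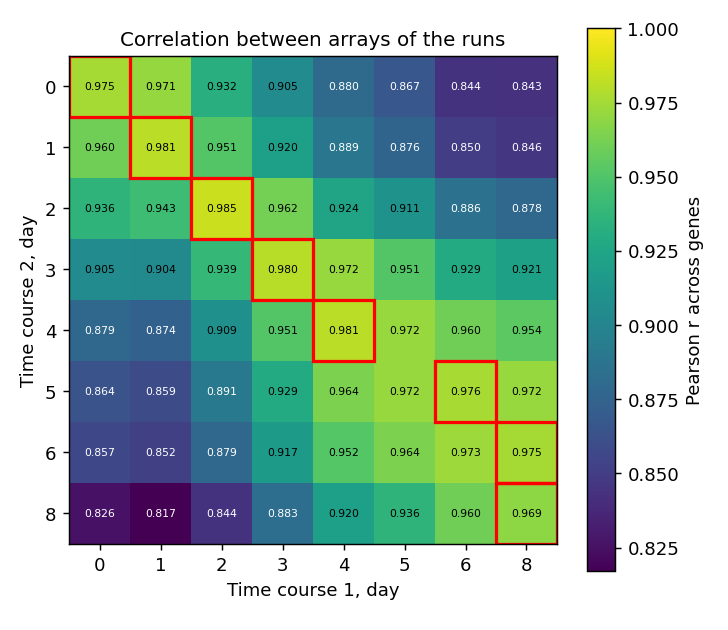
Pearson correlation of log2 intensity across 13084 genes between each array of time course 2 (rows, by day) and each array of time course 1 (columns, by day), both without IWP-2. Red frames mark the array of time course 1 closest to each array of time course 2, which is the same day except for days 5 and 6, where a later day of time course 1 is closest.

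The number of genes at least 2-fold apart was 531 on day 0 (4.06% of genes), was smallest on day 2 with 178 (1.36%) and was largest on day 8 with 783 (5.98%). On days 1, 3, 4, 5 and 6 it was 268, 348, 347, 543 and 570. On day 8 the genes lower in time course 2 outnumbered the higher ones, 476 to 307, whereas day 0 was nearly even with 260 lower and 271 higher. Single days have 1 array per run, so these counts have no error. The profile of differences was itself more alike between neighbouring late days than between early ones. Its correlation across genes was 0.618 between days 5 and 6, 0.546 between days 4 and 5, 0.427 between days 1 and 2, 0.185 between days 0 and 1 and 0.123 between days 0 and 8.

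**Figure D2:**
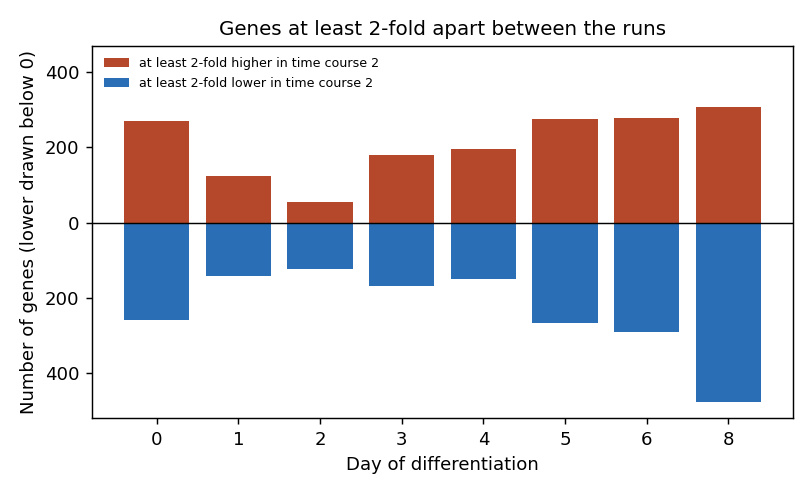
Number of genes (vertical axis) at least 2-fold higher in time course 2 (red, above 0) or at least 2-fold lower in time course 2 (blue, below 0) than in time course 1 on each day (horizontal axis), without IWP-2. The total is 178 genes on day 2 and 783 genes on day 8.

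A mean difference over the 8 days passed the test in 2979 genes (22.8% of those tested; limma with day as a block, Benjamini-Hochberg adjusted p below 0.05). Of these, 1407 were higher in time course 2 (10.8%) and 1572 were lower (12%). Most of the differences were small. Their median size was 0.425 on the log2 scale, and 64 genes (28 higher and 36 lower) passed with at least 2-fold. The daily difference had 1 sign on all 8 days in 1746 of the 2979 (58.6%), 792 of them higher and 954 lower, which is 6.05% and 7.29% of all genes tested. A stricter demand, a difference of at least 0.5 in the same direction on every day, was met by 12 higher and 48 lower genes, and 1 gene, ACTA1, kept a difference of at least 1 on every day.

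The constant genes described next are the 12 higher and 12 lower ones whose smallest daily difference was largest. The smallest daily difference was 0.533 for the last higher gene included and 0.485 for the next, and 0.693 and 0.679 in size for the lower ones. In bulk RNA, fewer cells of a type and less RNA per cell cannot be told apart, which holds for all genes below. Of the 24 genes, 10 had another detected probe. For AIFM1, LTBP4, SSBP3 and ZNF667 it passed in the same direction, while for AGAP3, CCNY, TMUB2 and ZNF580 another probe had the opposite sign without passing. Over all genes that passed and had another detected probe (894), another probe passed in the same direction in 31% and all other probes had the same sign in 66.4%.

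ACTA1 had a log2 intensity of 6.68, 9.07 and 10.18 in time course 2 (lowest, median and highest of 8 days), against 4.93, 6.13 and 8.04 in time course 1. The daily difference was 1.29, 1.65, 1.00, 2.43, 2.77, 2.86, 5.25 and 3.36 on days 0, 1, 2, 3, 4, 5, 6 and 8, so time course 2 was higher on each day and by more from day 3 on. Its mean was 2.57 ± 0.37 (SE of the fit, n = 8 days; adjusted p = 0.000931). Every SE given for a gene comes from the limma fit, which moves the variance of the gene toward that of all genes. For days 0 to 2 or days 3 to 8 the variance is shared by both stages. The SE is then not the spread of those days alone. ACTA2, which encodes smooth muscle alpha-actin, had 7.50, 9.89 and 12.27 in time course 2 and 8.10 as the median of time course 1, where it ran between 6.29 and 11.25. Its level climbed with the days in both runs, so the ranges overlap, while the difference on the same day stayed between 0.75 and 2.23. The mean was 1.37 ± 0.14 (adjusted p = 0.00025).

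**Figure D3:**
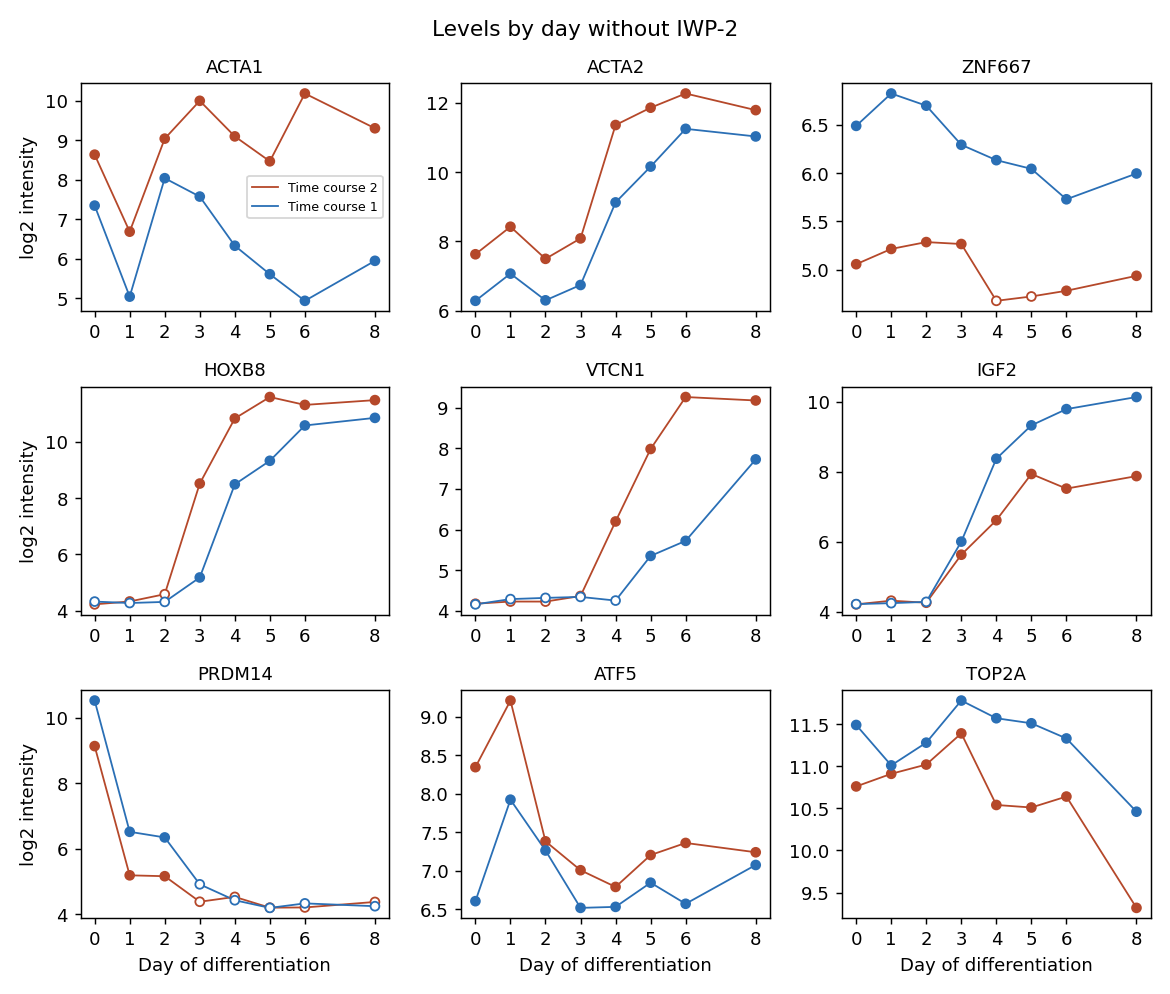
Log2 intensity (vertical axes) by day of differentiation (horizontal axes) without IWP-2 in time course 2 (red) and time course 1 (blue) for 9 genes, 1 array per point; open circles are arrays on which the probe was not detected. ACTA1 and ACTA2 are higher and ZNF667 lower in time course 2 on all 8 days, HOXB8, VTCN1 and IGF2 separate from day 3 or 4 on, and PRDM14 and ATF5 differ most on days 0 and 1.

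Several constant genes had levels that hardly moved over time, so that the runs did not overlap at all. SH3GL1, an endophilin of membrane uptake, had 7.88, 8.12 and 8.39 in time course 2, against 6.92, 7.18 and 7.44 in time course 1, with a mean difference of 0.90 ± 0.10 (adjusted p = 0.000259). AIFM1, a mitochondrial flavoprotein that can promote cell death, had 7.30, 7.56 and 7.90, against 6.41, 6.68 and 7.12, a difference of 0.84 ± 0.09. RNPEP, an aminopeptidase, had 8.95, 9.18 and 9.46, against 8.17, 8.35 and 8.61 (0.81 ± 0.08). In all 3 the lowest array of time course 2 lay above the highest array of time course 1. CCNY, a membrane-associated cyclin, behaved likewise with 9.14 to 9.98 in time course 2 and 8.31 to 8.92 in time course 1 (0.86 ± 0.09), although its other probe had −0.28 (adjusted p = 0.0571).

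The remaining higher genes were THEM6 (0.98 ± 0.11), TMUB2 (0.83 ± 0.08), LTO1 (0.81 ± 0.09), TGS1, an enzyme of RNA cap methylation (0.80 ± 0.09), and ARPIN, an inhibitor of the actin-branching Arp2/3 complex (0.63 ± 0.07). MFAP4, a protein of elastic microfibrils, rested on 1 array for its size. It had 7.05, 10.93 and 11.96 in time course 2, against 4.12, 9.09 and 10.68 in time course 1, where the lowest value is day 5, not above background between bright arrays of days 4 and 6. The mean difference was 1.98 ± 0.54 (adjusted p = 0.022) with day 5 and 1.31 (adjusted p = 0.00212) without it, and without a detection filter it did not pass (adjusted p = 0.0545).

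Among the lower genes ZNF667, a zinc finger gene of the KRAB family known to be silenced in some cell lines, had 4.68, 5.00 and 5.29 in time course 2, against 5.73, 6.21 and 6.82 in time course 1. It was detected on 6 of 8 arrays of time course 2 and on 8 of 8 of time course 1, and the runs did not overlap. The difference was −1.28 ± 0.09 (adjusted p = 5.41e-05). AAK1, a kinase of clathrin-mediated uptake, had the smallest adjusted p of the 24 (−1.19 ± 0.08, adjusted p = 4.36e-05), with 4.53, 4.77 and 5.37 in time course 2 and 5.55, 6.04 and 6.60 in time course 1. It was not detected on days 2, 3 and 4 of time course 2, so its values there lie near background and the size is uncertain.

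TAOK1, a kinase of stress signalling and microtubule dynamics, had 5.76, 6.19 and 6.34 in time course 2 and 7.03, 7.14 and 7.60 in time course 1 (−1.06 ± 0.08, adjusted p = 6.78e-05). SSBP3, a partner of LIM homeodomain complexes, had 6.69, 6.98 and 7.29, against 7.67, 8.12 and 8.52 (−1.07 ± 0.08). Neither overlapped between the runs. LTBP4, which binds latent TGF-beta in the matrix, had 7.03, 7.67 and 8.11 in time course 2 and 8.09, 8.94 and 9.50 in time course 1, so that the runs just met (−1.22 ± 0.11, adjusted p = 0.000133).

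GTF2A1, a subunit of the general factor TFIIA, was detected on 1 of 8 arrays of time course 2 and had 4.30, 4.60 and 4.82 there, against 5.45, 5.83 and 6.49 in time course 1 (−1.34 ± 0.12, adjusted p = 0.000133). Its other probe had −0.25 and did not pass. PCDHB5, a clustered protocadherin of cell adhesion, was not well above background on any array of time course 2, at 4.24, 4.43 and 4.56, and had 5.29, 5.58 and 5.90 in time course 1. It was at least 1.64-fold lower, where this bound sets the mean of the brighter run against the lowest detected signal of each dim array (adjusted p = 0.000133). The others were METRN, a secreted factor of glia (−1.31 ± 0.15), ZNF580 (−1.15 ± 0.09), ZFPM1, a cofactor of GATA factors also called FOG1 (−1.10 ± 0.11), ZNF681 (−1.08 ± 0.10) and AGAP3 (−0.85 ± 0.08).

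ZNF genes passed at shares close to those of all genes. Of 384 tested, 50 were lower (13%) and 38 were higher (9.9%), with a median of −0.011. By chromosome, 188 of 912 genes on chromosome 19 were lower in time course 2 (20.6%) and 79 were higher (8.66%), with a median of −0.052, and chromosome 16 had 17% lower. Neither share was tested. Of the 14 genes tested in 20q11.21, a band that cultured pluripotent cells often gain, 2 were higher (14.3%) and 4 were lower (28.6%), against 10.8% and 12% of all genes. The share of higher genes is close to that of all genes.

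The constant genes held in the arms with IWP-2, which are other arrays of the same runs. There the difference between runs passed in 2306 genes (17.6%; 7.85% higher and 9.78% lower), tested over 5 days. Of the 12 constant higher genes 10 passed with the same sign, ARPIN had 0.38 (adjusted p = 0.0512) and MFAP4 had the opposite sign with −1.31 (adjusted p = 0.099). Of the 12 lower genes 11 passed with the same sign, and AAK1 had −0.78 (adjusted p = 0.113). ACTA1 had 9.16, 9.19, 13.10, 11.96 and 13.79 in time course 2 with IWP-2 on days 3, 4, 5, 6 and 8, against 6.50, 6.05, 7.89, 9.18 and 9.63 in time course 1 with IWP-2 (3.59 ± 0.37, adjusted p = 0.00755). With IWP-2 the runs also differ in when the inhibitor was given, so run and timing cannot be told apart there.

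**Figure D4:**
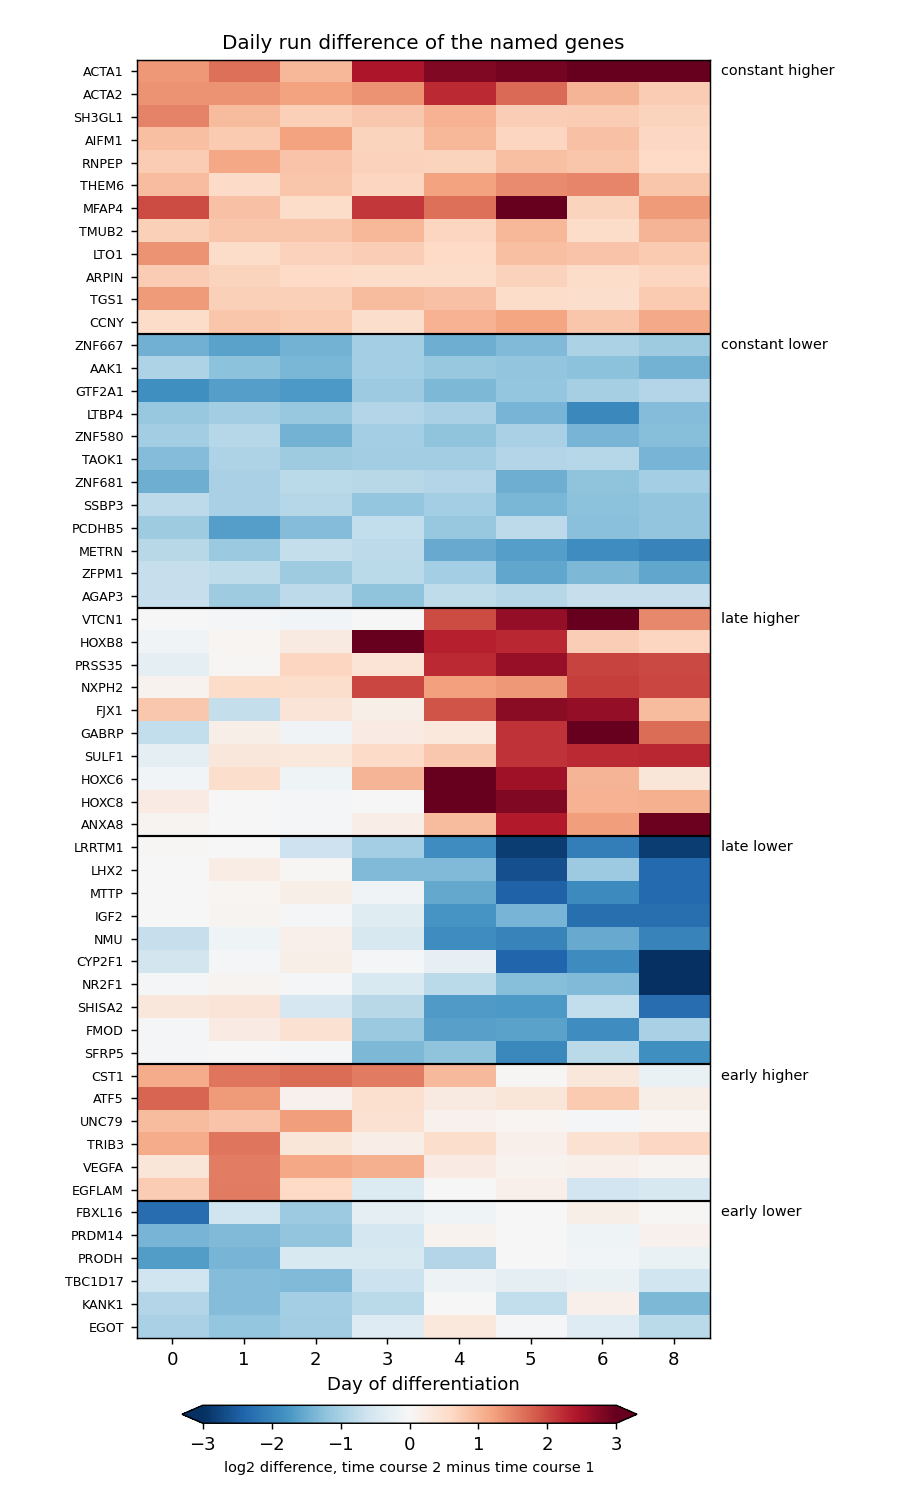
Difference in log2 intensity, time course 2 minus time course 1 (colour scale, red for higher in time course 2), on each day without IWP-2 (columns) for the 24 constant, 20 late and 12 early genes (rows). The constant genes keep 1 colour on all 8 days, most late genes are pale on days 0 to 2, and most early genes are pale from day 4 on, KANK1 on day 8 being an exception.

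Actin and SRF target genes were gathered in a list of 24 after the values of ACTA1 and ACTA2 had been seen, so its counts are a description and no independent evidence. Averaged over the 8 days, 12 were higher in time course 2 and 0 were lower, with a median of 0.349, where all genes had 10.8% higher, 12% lower and a median of 0.00968. On days 3 to 8 15 were higher (62.5%, against 9.55% of all genes) and 0 were lower (against 10%). The median was 0.444, against 0.0134 over all genes. On days 0 to 2 ACTA2 alone passed (4.17% higher, against 0.772% of all genes), and the list median was 0.159. Among the genes that did not pass on these days, ACTA1 was higher in time course 2 (1.31). EGR1 (−1.06) and FOS (−0.82) were lower there, opposite to the list median. With IWP-2 12 were higher (50%, against 7.85% of all genes) and 0 were lower (against 9.78%). The median was 0.841, against −0.00462 over all genes.

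ACTG2 had 6.05, 7.64 and 8.16 in time course 2, against 4.80, 6.21 and 7.59 in time course 1 (1.26 ± 0.20, adjusted p = 0.00163). ANKRD1, a stress-responsive muscle ankyrin repeat protein, had 4.86, 7.52 and 8.16, against 4.41, 5.54 and 7.39 (1.47 ± 0.25). NPPB, which encodes the natriuretic peptide BNP, had 5.19, 6.86 and 8.45, against 4.51, 5.17 and 6.24 (1.44 ± 0.27). The ranges overlapped in all 3, because levels moved over the days, and on average over days the run difference was more than 2-fold.

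TAGLN, the actin-bundling transgelin (0.97 ± 0.21), CCN2, a matricellular growth factor (0.85 ± 0.22), CSRP1 (0.78 ± 0.14), the calponin CNN2 (0.39 ± 0.08), SRF itself (0.36 ± 0.09, adjusted p = 0.015) and the tropomyosins TPM2 (0.36 ± 0.11) and TPM1 (0.34 ± 0.10) were also higher. The cytoplasmic actins did not pass, with −0.10 for ACTB (adjusted p = 0.37) and 0.02 for ACTG1 (adjusted p = 0.877). Neither did CNN1 (0.22), VCL (0.17), FOS (0.05), MYL9 (0.02), CALD1 (0.00) or EGR1 (−0.35). ACTB and ACTG1 lie close to the top of the normalized scale, where quantile normalization can understate a difference. Of the 12 calls, 9 to 12 held when any 1 day was left out, with TPM1, TPM2 and CCN2 among those lost.

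The CArG box shown above was found both in genes that passed and in genes that did not. In the 250 bases upstream it was found in 7 of the 19 list genes with a promoter entry (36.8%). Of these 7, ACTA1, ACTG2, CNN2 and SRF passed, and ACTG1, EGR1 and FHL2 did not. Among the 12 without the box 6 passed and 6 did not. Neither of 2 entries of ACTA2 held the box. A match is a stretch of letters and not a shown binding site. A gene without a match, such as ACTA2 or FOS, may hold a site beyond the 250 bases or one that departs from the motif.

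Differences confined to the later days were looked for with the change of the run difference, days 3 to 8 minus days 0 to 2. It passed in 0 genes (0% of those tested; limma, lowest adjusted p 0.177), with 1456 genes at an unadjusted p below 0.05. Other limits were tried as well. With days 0 and 1 against days 2 to 8 the change also passed in 0 genes. With days 0 to 3 against days 4 to 8 it passed in 21 genes (0.161%), 8 with a change upward and 13 downward in time course 2. The calls thus depend on where the limit is set. A linear trend with the order of the days passed in 36 (0.275%), 14 upward and 22 downward, and 10 genes were on both lists.

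CDH1, which encodes the epithelial adhesion protein E-cadherin, had the largest upward change of these 8 genes. On days 3, 4, 5, 6 and 8 it had 7.80, 10.25, 10.01, 10.17 and 10.86 in time course 2, against 8.05, 8.01, 7.92, 7.56 and 9.54 in time course 1. The difference was −0.41 on days 0 to 3 and 2.06 on days 4 to 8, a change of 2.48 ± 0.25 (SE; adjusted p = 0.0029). RSPO2, a secreted amplifier of WNT signals, changed by 2.22 ± 0.20 (adjusted p = 0.0023).

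In the other direction MTTP, the lipid transfer protein of lipoprotein assembly, changed by −2.09 ± 0.21 (adjusted p = 0.0029), IGF2, an imprinted fetal growth factor, by −1.84 ± 0.22 (adjusted p = 0.0076) and MYL7, the atrial myosin light chain, by −2.34 ± 0.38 (adjusted p = 0.037). MYL7 crossed over, with a difference of 1.07 on days 0 to 3 and −1.28 on days 4 to 8. By linear trend FOXA2, an endoderm factor, moved by −0.58 per sampled day (adjusted p = 0.02), the cardiac and endodermal factor GATA4 by −0.35 (adjusted p = 0.019), and the apolipoproteins APOA1 and APOA2 by −0.58 and −0.59 (adjusted p = 0.034 and 0.032). FOXA2 had 8.71 on day 0 and 5.21 on day 8 of time course 2, against 7.58 on day 0 and 8.33 on day 8 of time course 1, so the runs changed places. The endoderm list as a whole was not lower. Of its 13 tested genes 1 was higher (7.69%, against 9.55% of all genes) and 1 was lower (7.69%, against 10%) on days 3 to 8. Its median was −0.0144, against 0.0134 over all genes.

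The difference over days 3 to 8 alone passed in 2562 genes (19.6%), 1249 higher (9.55%) and 1313 lower (10%) in time course 2, 177 of them at least 2-fold. Without day 5, 6 or 8 the count was 1328, 1406 or 1683. Of the 320 genes that passed on days 0 to 2, 216 passed here too, 215 with the same sign. A late set was then drawn, after the values were seen, from genes that passed on days 3 to 8 with 1 sign on all 5 days, did not pass on days 0 to 2 and differed there by less than 0.5. It held 1759 genes, 929 higher and 830 lower, and 58 higher and 36 lower were at least 2-fold. Its 10 largest differences in each direction are given. Their change between the stages had unadjusted p between 1.4e-05 and 0.041 and adjusted p between 0.177 and 0.428, so no single one is shown to be late by that test.

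HOX genes, which pattern the body axis, were among the late higher ones. HOXB8 had 8.52, 10.83, 11.59, 11.31 and 11.48 on days 3, 4, 5, 6 and 8 of time course 2, against 5.18, 8.49, 9.33, 10.58 and 10.85 in time course 1, and was not detected before day 3 in either run. The gap was 3.33 on day 3 and 0.63 on day 8, so it narrowed (mean 1.86 ± 0.32, SE of the fit, n = 5 days; adjusted p = 0.00398). HOXC6 (1.59 ± 0.32) and HOXC8 (1.58 ± 0.35) had their largest gaps, 3.01 and 3.02, on day 4.

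Of the 14 HOX genes tested 4 were higher on days 3 to 8 (28.6%, against 9.55% of all genes) and 2 were lower (14.3%, against 10%), with a median of 0.378, HOXD3 being the other higher one (0.35 ± 0.10). The lower ones were the anterior genes HOXA2 (−0.70 ± 0.22) and HOXB1 (−0.50 ± 0.11). Without day 5, 6 or 8, 4 of the 6 calls held, lost for HOXA2 and HOXD3. HOXA2 also did not pass without day 0, 1 or 4, nor HOXD3 without day 3. The other probes of HOXC6 did not pass. None of HOXB8, HOXC6 and HOXC8 passed with IWP-2, where HOXB8 was detected on 1 of 10 arrays and HOXC8 on none.

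Several genes of trophoblast and amnion were higher on the same days. VTCN1, an immune checkpoint protein of these tissues, had 4.36, 6.20, 7.98, 9.26 and 9.18 in time course 2, against 4.34, 4.25, 5.35, 5.72 and 7.73 in time course 1, and was first detected on day 4 of time course 2 and on day 5 of time course 1 (1.92 ± 0.36, adjusted p = 0.00574). GABRP, a GABA receptor subunit, had 5.57, 5.99, 7.24, 9.06 and 9.48, against 5.32, 5.68, 5.07, 5.32 and 7.79 (1.63 ± 0.40, adjusted p = 0.0181), and without day 5 did not pass (adjusted p = 0.0665). DLX5, a homeobox factor, had 5.95, 7.51, 6.74, 6.12 and 4.89, against 4.26, 5.46, 5.38, 4.43 and 4.58 (1.42 ± 0.20). In these 3 genes every day had the higher value in time course 2.

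Of 12 tested genes of this list 6 were higher (50%, against 9.55% of all genes) and 1 was lower (8.33%, against 10%), with a median of 0.438. TFAP2A (1.26 ± 0.25), XAGE2 (0.53 ± 0.12) and GATA3 (0.52 ± 0.12) were the other higher ones, and PGF, a placental growth factor, was lower (−0.58 ± 0.13). On days 0 to 2 none of the 12 passed, and the median was −0.0619. On those days only 0.772% of all genes were higher and 1.67% were lower. The absence of calls among 12 genes thus does not show a late onset. With IWP-2 1 was higher (8.33%, against 7.85% of all genes) and 2 were lower (16.7%, against 9.78%).

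The other late higher genes were PRSS35 (1.85 ± 0.25), NXPH2, a neurexophilin, (1.72 ± 0.15, adjusted p = 0.00038), FJX1 (1.67 ± 0.34), SULF1, a heparan sulfate sulfatase of the cell surface (1.61 ± 0.25), and ANXA8, an annexin (1.55 ± 0.31). NXPH2 differed by 1.23 to 2.06 on each of the 5 days and its other probe passed too. None of the 10 late higher genes passed with IWP-2, where 7.85% of all genes were higher. ANXA8 and HOXC8 were not detected on any array of these arms, so no difference could be seen for them.

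Among the late lower genes LRRTM1, a synaptic leucine-rich repeat protein, had 6.80, 4.71, 4.97, 5.11 and 5.43 in time course 2, against 7.82, 6.57, 7.80, 7.18 and 8.28 in time course 1 (−2.12 ± 0.23, adjusted p = 0.000635). It was lower in time course 2 on each of the 5 days, and by 2.85 on day 8. IGF2 had 5.63, 6.62, 7.94, 7.52 and 7.88, against 6.01, 8.38, 9.33, 9.79 and 10.14 (−1.61 ± 0.23, adjusted p = 0.00178). It appeared on day 3 in both runs and then stayed lower in time course 2, and its other probe passed as well.

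LHX2, a LIM homeobox factor, had 4.82, 4.61, 6.89, 7.67 and 8.58 in time course 2, against 6.15, 5.94, 9.54, 8.77 and 10.90 in time course 1 (−1.74 ± 0.20). MTTP had −1.66 ± 0.26, the neuropeptide gene NMU −1.58 ± 0.21, SHISA2 −1.46 ± 0.22, the matrix proteoglycan FMOD −1.44 ± 0.14 and the secreted WNT antagonist SFRP5 −1.43 ± 0.15. NR2F1, an orphan nuclear receptor of atrial and neural development, was not detected on any array of time course 2 and had 4.84, 5.06, 5.48, 5.65 and 7.81 in time course 1 (at least 1.95-fold lower, adjusted p = 0.0131). CYP2F1 had −1.53 ± 0.37 (adjusted p = 0.0171) and did not pass without day 5, 6 or 8 (adjusted p = 0.0684, 0.0574 and 0.053). In 1 fit of all 27 arrays LHX2, SFRP5 and CYP2F1 did not pass, and the other 17 late genes did.

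With IWP-2 IGF2 (−2.42, adjusted p = 0.00755), NMU (−1.92, adjusted p = 0.00962), NR2F1 (−2.69, adjusted p = 0.0146), FMOD (−1.38, adjusted p = 0.0195) and SFRP5 (−2.90, adjusted p = 0.029) passed in the same direction, and the other 5 late lower genes did not pass. NR2F1 with IWP-2 was again not detected on any day of time course 2, against 5.27, 7.06, 7.53, 8.80 and 5.98 in time course 1.

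Onset was taken as the first day from which a gene stayed at least 2-fold apart in 1 direction to day 8. Only the 783 genes at least 2-fold apart on day 8 can have an onset, and an earlier one must hold on more days. The rule thus favours late onsets, and the counts do not show when differences mostly began. The onset was day 0 in 1 gene, day 1 in 3, day 3 in 9, day 4 in 25, day 5 in 69, day 6 in 102 and day 8 in 574. Day 8 rests on 1 array per run. Of the 94 late genes with at least 2-fold, 4 began on day 3, 11 on day 4, 25 on day 5, 10 on day 6 and 15 on day 8, and 29 had no such onset.

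The gene lists below were chosen with earlier results of these arrays known, and their medians are plotted by stage. Of 27 proliferation genes, 12 were lower in time course 2 on days 3 to 8 (44.4%, against 10% of all genes) and 0 were higher (against 9.55%), with a median of −0.331. TOP2A, the topoisomerase of dividing cells, had 11.39, 10.54, 10.51, 10.64 and 9.32 in time course 2 on those days, against 11.78, 11.57, 11.51, 11.33 and 10.46 in time course 1 (−0.85 ± 0.13, adjusted p = 0.00284). It was lower on each day. TYMS, which makes thymidylate (−0.92 ± 0.15), and the mitotic kinases BUB1B (−0.67 ± 0.13) and AURKB (−0.66 ± 0.11) were lower as well. On days 0 to 2 none of the 27 passed (median −0.114), where 0.772% of all genes were higher and 1.67% were lower. The absence of early calls thus does not show a late onset. Of the 12 late calls, 6 held without day 5 and 7 without day 4 or day 8, TOP2A, TYMS, BUB1B and AURKB among them, and 5 held in 1 fit of all 27 arrays, TOP2A and AURKB not among them.

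**Figure D5:**
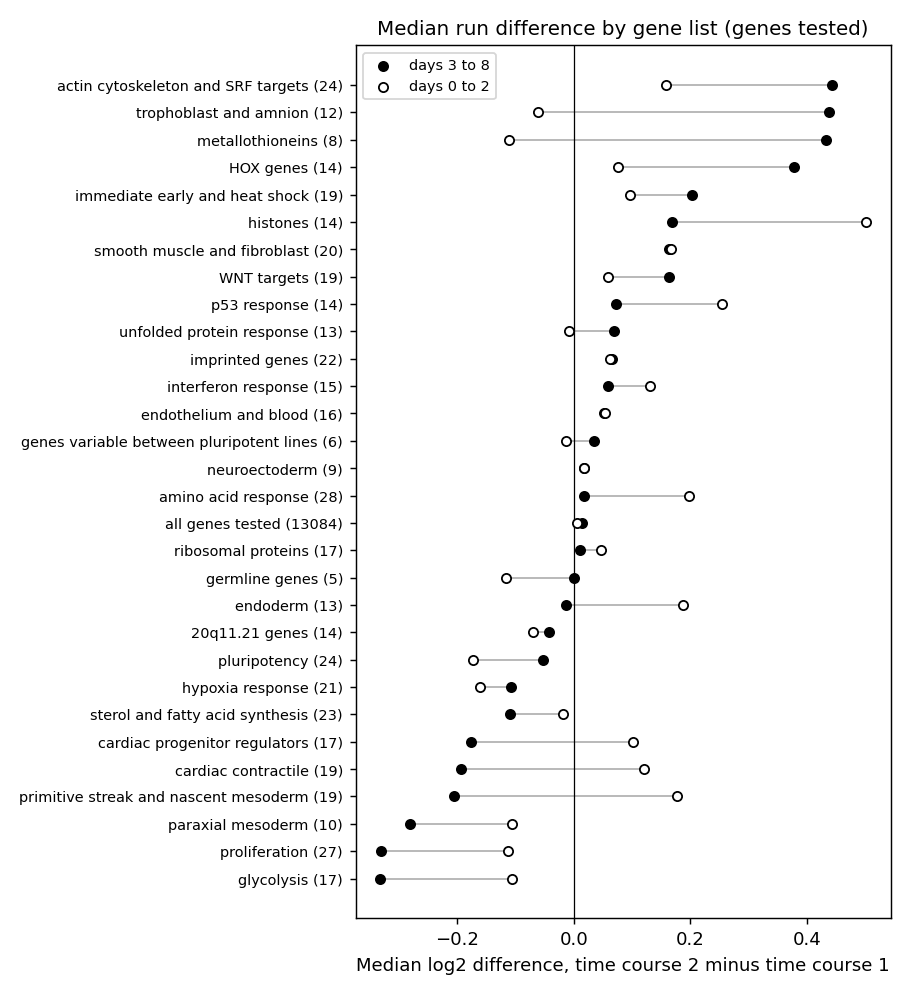
Median log2 difference, time course 2 minus time course 1 (horizontal axis), over the tested genes of each list (rows, number of genes in parentheses) on days 3 to 8 (filled circles) and on days 0 to 2 (open circles), without IWP-2. The actin and SRF list lies highest at 0.444 and glycolysis lowest at −0.333 on days 3 to 8, while all genes lie at 0.0134.

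Of 17 glycolysis genes, 5 were lower over the 8 days (29.4%, against 12% of all genes) and 1 was higher (5.88%, against 10.8%), with a median of −0.314. PKM, the pyruvate kinase of growing cells, had 6.96, 9.29 and 10.44 in time course 2, against 9.03, 10.10 and 11.15 in time course 1, and was lower on all 8 days (−1.05 ± 0.15, adjusted p = 0.00101). PFKL, the liver phosphofructokinase, had 7.60, 7.79 and 8.74, against 8.20, 8.51 and 9.49 (−0.70 ± 0.08). ENO2 (−0.79 ± 0.24), GPI (−0.53 ± 0.12) and LDHB (−0.37 ± 0.08) were lower, while the muscle phosphofructokinase PFKM was higher (0.32 ± 0.10). On days 3 to 8 the same 6 passed, and without day 5 or without day 6 3 of these 6 calls held, lost for PFKM, ENO2 and LDHB. GAPDH, often used as a reference gene, had −0.08 ± 0.10 (adjusted p = 0.612).

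Of 20 smooth muscle and fibroblast genes, 7 were higher on days 3 to 8 (35%, against 9.55% of all genes), and the 2 lower ones (10%) equal the share of all genes (median 0.163). PRRX1, a mesenchymal homeobox factor, had 1.49 ± 0.28, LUM, a collagen-binding proteoglycan, 1.31 ± 0.37 and DCN, its relative decorin, 1.15 ± 0.21. DCN had 5.28, 9.68, 12.45, 13.27 and 13.98 in time course 2, against 4.37, 7.73, 10.60, 12.97 and 13.24 in time course 1. The lower ones were LOX, which cross-links collagen (−1.38 ± 0.35), and WT1, a factor of the epicardium (−1.13 ± 0.18). LOX did not pass without day 5, 6 or 8, nor LUM without day 4, 5 or 8, nor DCN in 1 fit of all 27 arrays. Without day 5 or 8, 6 of the 9 calls held. With IWP-2 the list had 3 higher and 7 lower with a median of −0.939, where 7.85% of all genes were higher and 9.78% were lower.

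Of 19 cardiac contractile genes without IWP-2, 4 were higher on days 3 to 8 (21.1%, against 9.55% of all genes), and 2 were lower (10.5%), close to the 10% of all genes (median −0.194). ACTC1, cardiac alpha-actin (1.16 ± 0.27), and NPPB were higher, and ATP2A2, the calcium pump SERCA2 (−0.64), and MYL3 (−0.51) were lower. NPPA, which encodes atrial natriuretic peptide, stayed at or near background in both runs, between 4.44 and 5.18 in time course 2 and between 4.22 and 5.43 in time course 1. With IWP-2 6 were higher and 0 were lower in time course 2 (median 1.08), where 7.85% of all genes were higher and 9.78% were lower.

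Targets of WNT signalling were higher in 5 of 19 on days 3 to 8 (26.3%, against 9.55% of all genes) and lower in 1 (5.26%, against 10%), with a median of 0.163. AXIN2, a feedback inhibitor of the pathway (0.61 ± 0.13), NKD1 (0.80 ± 0.15), ZNRF3 (0.53 ± 0.14), TNFRSF19 (0.78 ± 0.20) and the caudal factor CDX4 (0.80 ± 0.23) were higher, and the receptor FZD7 was lower (−0.63 ± 0.13). Without day 5 or without day 6, 3 of these 6 calls held, lost for ZNRF3, CDX4 and TNFRSF19, and in 1 fit of all 27 arrays 3 held, lost for AXIN2, ZNRF3 and FZD7. CDX4 was also higher before day 3, at 6.18 and 5.24 on days 1 and 2 of time course 2, against 4.56 and 4.30. By day 8 the gap had closed, at 4.23 against 4.27. CDX4 was detected in time course 1 on days 0 and 4 only, and in neither run on days 6 and 8. The size of its difference is thus uncertain. A joint list of immediate early and heat shock genes had 5 of 19 higher (26.3%, against 9.55% of all genes) and 0 lower (median 0.203). The 5 were ATF3, a stress factor (1.63 ± 0.24), CCN1 (1.25 ± 0.17), CCN2 (1.24 ± 0.22), FOS (0.58 ± 0.18) and KLF6 (0.39 ± 0.12). No heat shock gene was among them. Without any 1 of days 2, 4, 5, 6 and 8, FOS and KLF6 did not pass.

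On days 0 to 2, while the cells left pluripotency, 320 genes differed (2.45%), 101 higher (0.772%) and 219 lower (1.67%) in time course 2. With median scaling in place of quantile normalization 42.05% of the calls were higher, against 31.56% here. This stage has 3 days, and the count hung on each of them. It was 25 without day 0, 2 without day 1 and 12 without day 2, and 147, 169 and 212 without days 4, 5 and 6, which enter through the shared variance. Of these genes 104 did not pass on days 3 to 8, 40 higher and 64 lower. The 6 largest in each direction that were larger early than late were picked after the values were seen, and 3, 0 and 4 of the 12 passed without days 0, 1 and 2.

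PRDM14, a regulator that guards human pluripotency, had 9.13, 5.18 and 5.16 on days 0, 1 and 2 of time course 2, against 10.52, 6.51 and 6.34 in time course 1 (−1.30 ± 0.15, SE of the fit, n = 3 days; adjusted p = 0.00518). It was lower on each of the 3 days and was not detected in either run from day 3 on. Its other probe had −0.72 on days 0 to 2 and did not pass (adjusted p = 0.107). DPPA2 (−0.72, adjusted p = 0.0311) and DNMT3B, the de novo methyltransferase of pluripotent cells (−0.65, adjusted p = 0.0463), were also lower. These 3 were the calls among 24 pluripotency genes (12.5% lower, against 1.67% of all genes), whose median was −0.174, against 0.00506 over all genes. DNMT3B was lower over all 8 days (−0.72 ± 0.09, adjusted p = 0.00047). POU5F1, NANOG and SOX2 did not pass over the 8 days (0.04, 0.01 and 0.03).

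ATF5 and TRIB3, which belong to the response to amino acid shortage, were higher early. ATF5 had 8.35, 9.21 and 7.39 in time course 2, against 6.61, 7.93 and 7.27 in time course 1 (1.05 ± 0.25, adjusted p = 0.0495). The gap was small on day 2 but wider again on day 6, at 7.36 in time course 2 against 6.57 in time course 1. TRIB3 had 7.56, 8.97 and 6.93, against 6.45, 7.37 and 6.57 (1.02 ± 0.20, adjusted p = 0.0311). They were the only 2 calls among the 28 genes of that response on these days (7.14% higher, against 0.772% of all genes). Without IWP-2 neither ATF5 nor TRIB3 passed on days 3 to 8 (0.41 and 0.40), but both passed over the 8 days (0.65 and 0.63). Both also passed with IWP-2 on days 3 to 8 (0.85 and 0.69), so a higher level of these 2 genes in time course 2 was not confined to the first days. The list as a whole did not follow them. On days 3 to 8 without IWP-2 1 of the 28 was higher (3.57%, against 9.55% of all genes) and 4 were lower (14.3%, against 10%). With IWP-2 2 were higher (7.14%, against 7.85%) and 3 were lower (10.7%, against 9.78%).

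CST1, a secreted cystatin, had 9.84, 9.69 and 10.85 in time course 2, against 8.72, 8.08 and 9.18 in time course 1 (1.47 ± 0.28, adjusted p = 0.03). VEGFA, the vascular growth factor (1.01 ± 0.23), UNC79 (1.02 ± 0.14) and EGFLAM, a matrix protein (0.97 ± 0.20), were the other higher ones. The other probe of VEGFA had 0.23 and did not pass (adjusted p = 0.55). FBXL16, an F-box protein, was not detected in time course 2 and had 7.11, 5.23 and 5.55 in time course 1 (at least 2.02-fold lower, adjusted p = 0.0268). PRODH, which breaks down proline (−1.18 ± 0.23), TBC1D17 (−1.08 ± 0.17), KANK1 (−1.07 ± 0.25) and the noncoding RNA EGOT (at least 1.41-fold lower) were lower.

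Some genes differed in both stages. CXCR4, a chemokine receptor of mesendoderm, had 6.23, 6.91 and 8.21 on days 0, 1 and 2 of time course 2, against 4.90, 4.64 and 6.66 in time course 1 (1.72 ± 0.24, adjusted p = 0.0128), and it was higher on days 3 to 8 too (0.83 ± 0.18). CDKN1A, the cell cycle inhibitor p21, had 9.70, 9.49 and 8.21, against 8.25, 8.14 and 6.59 (1.47 ± 0.29, adjusted p = 0.0311), and 0.72 ± 0.23 on days 3 to 8, with day 5 the 1 day on which time course 2 was lower. Neither passed with IWP-2 (−0.44 and 0.00).

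Genes that mark the steps of the protocol mostly did not pass between the runs over the 8 days. The mean difference was −0.17 for TBXT and −0.07 for EOMES, both primitive streak factors, −0.27 for MESP1, which opens the cardiac mesoderm program, 0.05 for HAND1, 0.02 for CDX2, 0.26 for MSX1, −0.02 for KDR and 0.22 for AFP. EOMES was already apart on day 0, at 8.51 in time course 2 against 6.55 in time course 1, and had the opposite order on days 1 to 4. ISL1, a factor of the second heart field, passed with 1.08 ± 0.29 (adjusted p = 0.0208) and was furthest apart on day 6, at 8.86 in time course 2 against 5.39 in time course 1.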

How the data were processed

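Per the labels' protocols, RNA was isolated with RNeasy columns, amplified with the Illumina TotalPrep kit with biotin labelling, and hybridised to Illumina bead arrays. The deposited scanner table gives, per the file headers, an intensity and a detection p-value for each probe on each array. The submitters' processing notes name GenomeStudio with no version. The authors' processed intensity values, a second deposited table, served as an alternative.

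Intensities of all 27 arrays were passed through neqc (limma 3.58.1, R 4.3.3, offset 16), which subtracts background by normexp, normalizes quantiles and takes log2. Of 47323 probes 30113 carried 1 gene symbol, 8 several and 17202 were not listed in the annotation used. A probe was kept where its detection p-value was below 0.01 on 2 or more of the 16 arrays (22612 probes, 17602 with 1 gene). Each gene was represented by its brightest probe on average (13084 genes, 3586 with several detected probes). Linear models with day as a block were fitted with limma, with Benjamini-Hochberg adjustment over all genes (threshold 0.05). Day pairs the arrays: after the mean of each run was taken out, arrays of the same day correlated across genes with r between 0.72 and 0.865, over 0.1 on each of the 8 days.

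Members, gene lists and tests were chosen with earlier results of these data known. Constant genes were the 12 in each direction with the largest smallest daily difference among genes that passed with 1 sign on all days. The rule for late and early genes asked for a call in the change of the run difference, which no gene had, so a later rule was used. Up to 4 passing members of each list, and some beyond that rule, are named, with a set of fixed genes. Promoters are RefSeq's (GRCh38.p14). The fits were tested on simulated data. No slide block was fitted, since the files name no slide. One cardiac gene is not reported here.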

Additional observations from a re-analysis of the deposited data

Results flagged for a closer look

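Among 56 constant, late and early genes, 4 had 1 day on which the difference between the runs stood far from the other 7 (7.14%). These genes were chosen by their daily differences and share the same arrays. The nominal rate of 1 in 20 thus does not apply to them, and the share cannot be set against chance. SH3GL1 differed by 1.48 on day 0 and LTO1 by 1.36 on day 0, both more than on any other day. MFAP4 differed by 6.71 on day 5, where time course 2 had 10.82 and time course 1 had 4.12, and NR2F1 by −3.62 on day 8, where time course 2 had 4.18 and time course 1 had 7.81.

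The day 8 array with IWP-2 stood apart in mean scanner intensity in both runs, with 225.2 units for time course 2 and 293.1 units for time course 1, each the lowest of its arm. Without day 8, 1328 genes passed with IWP-2, against 2306 with it.

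SULF1 was higher in time course 2 on days 3 to 8 without IWP-2 and lower on all 5 of these days with it, with a mean of −0.443. The difference between the arms was not tested.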

How the results depend on the processing

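Counts of genes that passed depended on the block, the threshold and single days. With day left out of the fit as a block, 557 genes passed in the mean over 8 days, 25 on days 0 to 2, 617 on days 3 to 8 and 970 with IWP-2. Calls of 20 of the 24 constant genes held without the block, lost for ACTA2, MFAP4, ARPIN and TGS1, as did 5 of the 20 late genes and 1 of the 12 early ones. At an adjusted p of 0.01 the counts were 1163, 10, 768 and 272. Days 0 to 2 were the least steady, with 501 genes in 1 fit of all 27 arrays, 178 with the authors' processed values and 1020 with array weights. The arms with IWP-2 gave 3489 genes in the fit of all 27 arrays, and with median scaling 59.15% of their calls were higher, against 44.54%. The change of the run difference passed in 1 gene (FMOD) with array weights and in 0 with days 0 and 1 set against days 2 to 8. It passed in 21 with days 0 to 3 set against days 4 to 8 and in 36 as a linear trend. Leaving out 1 day at a time gave 2030 to 2883 genes for the mean, 0 to 15 for the change (15 without day 3 and 3 without day 8), 2 to 334 for days 0 to 2, 1328 to 2810 for days 3 to 8 and 436 to 1614 with IWP-2 (436 without day 6). All 24 constant calls held without any 1 day. Over all named genes and settings 1878 of 2224 kept direction and call, 346 kept the direction alone and 0 reversed. Other normalization, detection and variance settings kept the counts within 1.5 times. Probes near background limit what can be seen of dim genes such as PCDHB5, NR2F1 and FBXL16.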

Other observations

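Of 14 histone genes, 5 were higher in time course 2 over the 8 days (35.7%, against 10.8% of all genes) and 1 was lower (7.14%, against 12%). Their median was 0.326, against 0.00968 over all genes, with H2AC18 at 0.72 ± 0.12 (adjusted p = 0.00253), H2BC5 at 0.68 ± 0.16 and H2BC12 at 0.62 ± 0.12, while the replacement histone H3-3B was lower (−0.43 ± 0.09). The median was larger on days 0 to 2, at 0.502, with H2BC11 and H3C10 passing. Histone genes resemble each other, so probes may share signal.

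Imprinted genes had 4 of 22 higher (18.2%, against 10.8% of all genes) and 3 lower (13.6%, close to the 12% of all genes) over the 8 days, with a median of 0.145. PLAGL1 (0.52 ± 0.08, adjusted p = 0.00175), MEST, NAP1L5 and NDN were higher, and IGF2, DLK1 (−0.85 ± 0.27) and SLC67A1 were lower. DLK1, a NOTCH-like growth inhibitor, was lower by 1.41 ± 0.22 on the log2 scale on days 3 to 8. Paraxial mesoderm genes had DLL3 (−0.83 ± 0.18) and FOXC2 (−0.54 ± 0.11) lower over the 8 days (20% of 10 genes, against 12% of all genes) and a median of −0.247. Among 8 metallothioneins and zinc transporters 2 were higher on days 3 to 8 (25%, against 9.55% of all genes) and 0 were lower (against 10%). Their median was 0.433. MT1X, a metal-binding protein, was among the higher ones (0.77 ± 0.18, adjusted p = 0.0156).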
